A study of Arabidopsis thaliana with 6 samples.

Results

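The genes described here encode the enzymes of the Calvin cycle and of photorespiration in Arabidopsis thaliana. They were taken by locus identifier from a fixed list: the small subunits of Rubisco, Rubisco activase, the other Calvin cycle enzymes, the CP12 proteins, and the photorespiratory enzymes and carriers. All 37 listed genes were found among the 27416 genes of the deposited expression table, 20 of the Calvin cycle and 17 of photorespiration. The study profiled RNA from whole wild-type seedlings, 7 days old, in 6 libraries. The control group had 3 libraries from seedlings given water (ddH2O), and the CLE9 group had 3 libraries from seedlings given CLE9 at 200 nM. CLE9 is a small secreted signalling peptide of the CLAVATA3/ESR-related family. The length of the treatment and the hour of harvest are not given in the sources used here. No label states that replicate libraries stem from separate cultures of plants, and p-values therefore cover only library-to-library spread, which may be technical.

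In the Calvin cycle, Rubisco fixes CO2 onto ribulose 1,5-bisphosphate, the product is reduced with ATP and NADPH, and the remaining enzymes rebuild the acceptor. Rubisco also takes up O2, and photorespiration recovers the carbon of the resulting 2-phosphoglycolate along a route through chloroplast, peroxisome and mitochondrion. Nuclear genes of both pathways are known as some of the most highly expressed genes of green tissue, and light, sugars and the circadian clock are known to act on them.

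Levels are given as the FPKM that the authors deposited, which divide the fragments of a gene by its transcript length in kilobases and by the library's mapped fragments in M (units of 1e6). Depth was estimated from the low values at 20.3 to 31.6 M fragments per library, and each library had between 16575 and 17874 genes at 1 FPKM or more. CLE9 replicate 2 had the lowest of both. The labelled tissue was read from 2 lists: the 29 nuclear photosystem genes summed to between 20319 and 67398 FPKM. The 14 root marker genes summed to between 107.7 and 136.2 FPKM outside replicate 2, and to 64.4 and 47.4 FPKM in control and CLE9 replicate 2. NAXT1 gave 41.9 FPKM in CLE9 replicate 2 and was set apart after its values were seen. The other 13 summed to between 85.4 and 112 FPKM outside replicate 2, and to 36.3 and 5.48 FPKM in control and CLE9 replicate 2. The replicate 2 libraries stood apart from the others in both groups, so results are given with and without them.

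The 37 genes were lower in mean with CLE9 than in controls, without exception, where the fit described below gave 10222 of 17812 genes as lower. No gene of the list passed the test, and most of the difference lay in 1 library. Summed over the 37 genes, the level was 54403, 43545 and 55385 FPKM in control replicates 1, 2 and 3, and 56296, 13851 and 46184 FPKM in CLE9 replicates 1, 2 and 3. CLE9 replicate 2 was far below every other library, while CLE9 replicate 1 was above all controls. The genes made up 2.00% of all FPKM in CLE9 replicate 2 and between 6.03% and 7.74% in the other libraries. The group means were 51111 ± 6571 FPKM with water and 38777 ± 22171 FPKM with CLE9 (SD, n = 3), and the groups overlapped. In bulk samples, fewer cells of a type and less RNA per cell cannot be told apart.

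**Figure D1:**
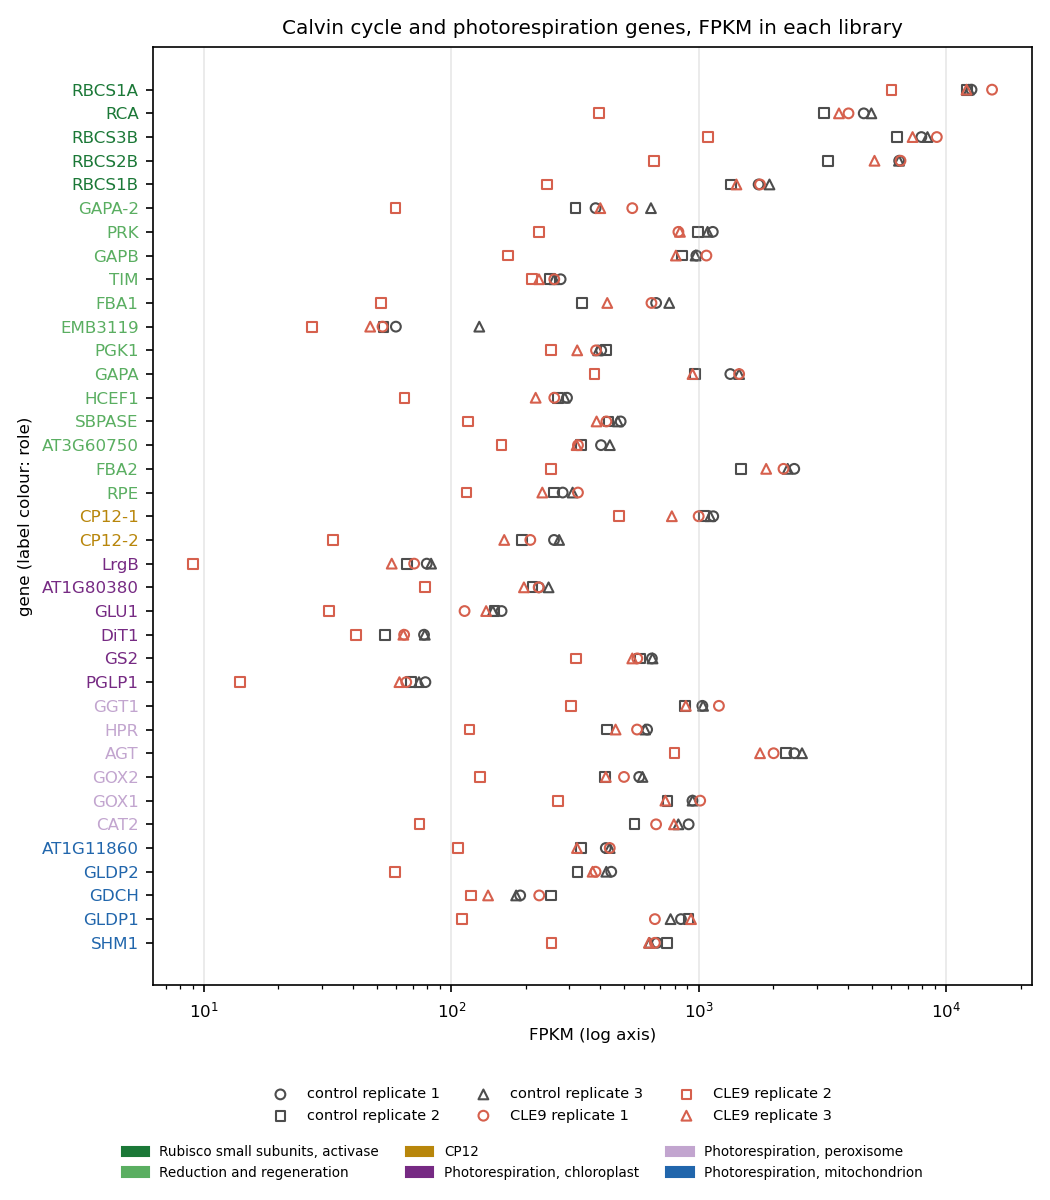
FPKM (log axis) of the 37 genes in each of the 6 libraries, 1 symbol per library and 1 line per gene, with the gene names coloured by role. The open red square of CLE9 replicate 2 is the lowest point on all 37 lines, while CLE9 replicates 1 and 3 lie among or close to the controls.

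Each gene was tested with limma on log2(FPKM + 1) in a fit over the 17812 genes whose mean level reached 1 FPKM, a filter that all 37 genes passed. The Benjamini-Hochberg adjustment ran over all 17812 genes tested. A gene was called at an adjusted p under 0.05. Differences below are CLE9 minus control on this log2 scale with their standard error, and the added 1 makes little difference at the levels of these genes. In the fit with group only, 0 of the 37 were called, where 1 of all genes tested was called (0.00561%). Of the 37, 0 had an unadjusted p under 0.05, against 1586 (8.90%) of all genes tested. The fitted differences ran from -1.22 (RCA) to -0.18 (TIM), with a median of -0.79 beside -0.06 over all genes tested, and standard errors from 0.21 to 0.98. Without CLE9 replicate 2 the median was -0.10, and leaving out any other single library gave medians from -1.15 to -0.71. The count over the table was 204 without control replicate 2, and 0 when control replicate 1, or either of CLE9 replicates 1 and 3, was left out, with 0 of the 37 called each time. When the replicate number entered as a block, 355 genes were called (1.99%) and again 0 of the 37, with a smallest limma adjusted p of 0.184 for EMB3119. At an unadjusted p under 0.05 stood 2 of the 37 (5.41%), against 3675 (20.6%) of all genes tested. CLE9 replicate 2 was the lowest of the 6 libraries for 37 of the 37 genes, against 42.2% of all genes tested. Every CLE9 library was below every control library for 11 of the 37, where 7.47% of all genes tested showed this.

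Rubisco is built of a large subunit, encoded in the chloroplast, and of small subunits encoded by 4 nuclear RBCS genes, and Rubisco activase (RCA) frees its active site of inhibitory sugar phosphates. The small subunit genes were the highest of the list in controls apart from RBCS1B, which stood below RCA, AGT and FBA2. RBCS1A (AT1G67090, chromosome 1, 25048158 to 25049424, minus strand, TAIR10) lies alone. RBCS1B (AT5G38430, 15384117 to 15385247), RBCS2B (AT5G38420, 15380945 to 15382035) and RBCS3B (AT5G38410, 15377173 to 15378416) lie side by side on the minus strand of chromosome 5. Their coding sequences share 96.7% to 97.3% of bases with each other and 90.4% to 90.6% with RBCS1A, so the authors' counting may have split reads among these copies and single values are uncertain.

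The 250 bases before the RefSeq start of each RBCS gene are shown because the family members departed unequally in CLE9 replicate 2, as given further on. They are from RefSeq, build TAIR10.1, at chr1:25049668-25049917, chr5:15385321-15385570, chr5:15382072-15382321 and chr5:15378643-15378892, all on the minus strand and written 5′ to 3′. Capitals mark, on either strand, the G-box CACGTG, the I-box GATAAG, the evening element AAAATATCT, the CCA1-binding site AAAAATCT and the W-box core TTGAC. No marked motifs overlap in these windows.
RBCS1A: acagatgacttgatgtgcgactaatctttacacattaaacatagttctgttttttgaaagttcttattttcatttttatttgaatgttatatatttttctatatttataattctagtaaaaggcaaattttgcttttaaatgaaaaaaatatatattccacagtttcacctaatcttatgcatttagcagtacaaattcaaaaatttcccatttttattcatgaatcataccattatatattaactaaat
RBCS1B: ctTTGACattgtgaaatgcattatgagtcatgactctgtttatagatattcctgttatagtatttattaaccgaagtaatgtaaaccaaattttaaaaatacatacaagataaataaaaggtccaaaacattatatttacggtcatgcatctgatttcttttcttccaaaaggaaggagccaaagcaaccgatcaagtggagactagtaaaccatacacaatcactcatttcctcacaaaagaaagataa
RBCS2B: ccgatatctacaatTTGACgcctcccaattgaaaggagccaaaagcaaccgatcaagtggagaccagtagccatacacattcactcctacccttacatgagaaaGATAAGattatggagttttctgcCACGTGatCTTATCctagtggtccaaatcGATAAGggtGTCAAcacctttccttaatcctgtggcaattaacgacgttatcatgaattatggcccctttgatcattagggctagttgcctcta
RBCS3B: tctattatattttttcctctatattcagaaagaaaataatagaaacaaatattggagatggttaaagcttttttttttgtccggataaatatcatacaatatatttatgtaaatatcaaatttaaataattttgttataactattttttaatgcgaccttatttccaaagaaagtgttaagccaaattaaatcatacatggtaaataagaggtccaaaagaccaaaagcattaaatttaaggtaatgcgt

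The RBCS2B window held a G-box at position -123, counted back from the start, and I-boxes at -146, -115 and -94. The RBCS1A and RBCS3B windows held none of the motifs, and the RBCS1B window held only a W-box core at -248. A match is only a run of letters, and the lack of one says only that these letters are not in this window. The RefSeq start lay 243, 73, 36 and 226 bases upstream of the start in the deposited table for RBCS1A, RBCS1B, RBCS2B and RBCS3B, so the windows do not cover the bases next to the deposited start. It lay upstream for 32 of the 37 genes, by up to 1237 bases, and was the same for 5. Over the 37 genes, 5 windows (13.5%) held a G-box, against 7.34% of the 17690 genes tested that have a window. The 5 were RBCS2B, PRK, HCEF1, GLDP1 and GGT1. An I-box was in 5 windows (13.5%, against 12.6%), those of RBCS2B, RCA, HCEF1, CP12-2 and GLDP2. A W-box core was in 15 (40.5%, against 45.4%), a CCA1-binding site in 1 (2.70%, against 6.78%) and an evening element in 0 (against 2.58%). In the 29 nuclear photosystem genes the shares were 24.1% (G-box), 31% (I-box), 37.9% (W-box core), 10.3% (CCA1-binding site) and 3.45% (evening element).

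RBCS1A was at 12674, 12133 and 12366 FPKM with water and at 15345, 6024 and 12102 FPKM with CLE9 (replicates 1 to 3). CLE9 replicate 1 was the highest of the 6 libraries and CLE9 replicate 2 the lowest, so the groups overlapped. The fitted difference was -0.26 ± 0.59 (SE, limma adjusted p = 0.937), and it was 0.12 ± 0.27 without both replicate 2 libraries. It was 0.14 without CLE9 replicate 2 alone and -0.27 without control replicate 2 alone, so its sign rested on CLE9 replicate 2. RBCS2B was at 6464, 3333 and 6452 FPKM with water and 6544, 659.7 and 5137 FPKM with CLE9. Here both replicate 2 libraries were low, control replicate 2 included. RBCS3B was at 7947, 6329 and 8411 FPKM with water and 9176, 1092 and 7323 FPKM with CLE9, and RBCS1B at 1747, 1352 and 1932 FPKM and at 1769.6, 243 and 1421 FPKM. For both genes CLE9 replicate 1 lay within or above the controls, and CLE9 replicate 2 was the only CLE9 library far below them. The fitted differences of RBCS2B, RBCS3B and RBCS1B were -0.88 ± 0.96, -0.84 ± 0.89 and -0.97 ± 0.79, with limma adjusted p between 0.779 and 0.835. RBCS3B stood at 0.00 ± 0.25 without both replicate 2 libraries.

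RCA (AT2G39730) had the largest fitted difference of the 37 genes. It was at 4647, 3209 and 4989 FPKM with water and at 4033, 394 and 3689.8 FPKM with CLE9. CLE9 replicates 1 and 3 were below control replicates 1 and 3 but above control replicate 2, so the groups overlapped. The difference was -1.22 ± 0.96 (limma adjusted p = 0.771), and -0.32 ± 0.21 without both replicate 2 libraries (adjusted p = 0.400).

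Within the RBCS family the make-up differed in CLE9 replicate 2. RBCS1A gave 44.0%, 52.4% and 42.4% of the family's FPKM with water, and 46.7%, 75.1% and 46.6% with CLE9. Its share was highest in CLE9 replicate 2, and the next highest was in control replicate 2. RBCS2B gave 22.4%, 14.4% and 22.1% in controls and 19.9%, 8.23% and 19.8% with CLE9, and RBCS3B held between 27.3% and 28.8% in all libraries except CLE9 replicate 2, at 13.6%. How reads were assigned among the copies is not known here, and RBCS1A against the rest is the contrast with the fewest shared bases. Such shifts were also seen in some other pairs of genes: GAPA, the A subunit of the chloroplast glyceraldehyde 3-phosphate dehydrogenase, gave 69.4% to 77.8% of the GAPA family in the other 5 libraries and 86.5% in CLE9 replicate 2. CP12-1 gave 80.3% to 84.5% of the pair with CP12-2 in the other 5 libraries and 93.5% in CLE9 replicate 2. In contrast the shares of GLDP1 and of GOX1 in CLE9 replicate 2, 65.1% and 67.5%, were within 1 percentage point of another library. With 3 libraries against 3, an exact two-sided permutation test cannot go below p = 0.10, so the shares are a description.

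**Figure D2:**
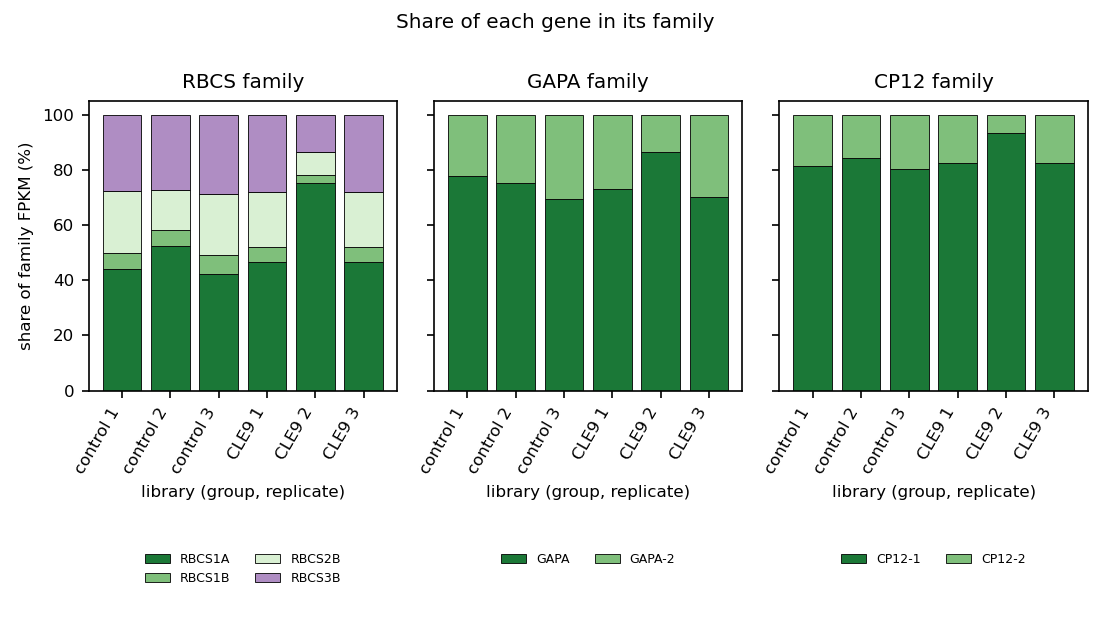
Share (%) of each gene in the summed FPKM of its family in each of the 6 libraries, for the RBCS, GAPA and CP12 genes, as stacked bars. The RBCS1A, GAPA and CP12-1 segments are tallest in CLE9 replicate 2, at 75.1%, 86.5% and 93.5%.

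The 13 genes of the reduction and regeneration steps had a median fitted difference of -0.82 (-0.24 without both replicate 2 libraries), and 0 were called. In 6 of them every CLE9 library was below every control library: PGK1, HCEF1, SBPASE, AT3G60750, EMB3119 and PRK (6 of 13, where 7.47% of all genes tested showed this). Phosphoribulokinase (PRK, AT1G32060), which makes the CO2 acceptor, was at 1140.2, 996 and 1086 FPKM with water and at 828, 226 and 839.8 FPKM with CLE9. All CLE9 libraries were below all controls, and CLE9 replicates 1 and 3 were close to each other. The difference was -0.99 ± 0.56 (limma adjusted p = 0.701) and -0.42 ± 0.16 without both replicate 2 libraries (adjusted p = 0.177). Sedoheptulose-1,7-bisphosphatase (SBPASE, AT3G55800), a light-activated enzyme of the regeneration branch, was at 484, 432 and 471 FPKM with water and 423, 117 and 387 FPKM with CLE9. The gap between the lowest control and the highest CLE9 library was small beside the range within each group. Its difference was -0.78 ± 0.53 (limma adjusted p = 0.733).

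Chloroplast transketolase (AT3G60750) moves 2-carbon units between sugar phosphates. Its levels were 403, 333 and 437 FPKM with water and 325, 159.6 and 321 FPKM with CLE9, with the groups apart by the small step between 333 and 325 FPKM. The difference was -0.60 ± 0.35 (limma adjusted p = 0.708), and -0.38 ± 0.14 without both replicate 2 libraries (adjusted p = 0.174). EMB3119 (AT3G04790), a ribose 5-phosphate isomerase, had the smallest p of the list, with a difference of -0.85 ± 0.42 (limma adjusted p = 0.649). It was at 59.7, 53.2 and 129.7 FPKM with water and 52.7, 27.4 and 47.0 FPKM with CLE9. This gene differed from the others in that control replicate 3 was far above the rest, and CLE9 replicate 1 was just below control replicate 2.

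The other 9 genes of these steps are given by group mean. The aldolases FBA1 and FBA2, which join triose phosphates, were at 590.0 ± 223 and 2069 ± 512 FPKM with water and at 374 ± 299.7 and 1443 ± 1044 FPKM with CLE9. GAPA, GAPA-2 and GAPB of the reduction step were at 1255 ± 258, 447 ± 171 and 935 ± 69.8 FPKM with water, and at 927 ± 539, 333 ± 247 and 684 ± 465 FPKM with CLE9. The SD with CLE9 was wider than in controls for each of these genes. Triose phosphate isomerase (TIM) and phosphoglycerate kinase (PGK1), at 263 ± 13.0 and 406 ± 14.6 FPKM with water, were at 233 ± 25.3 and 320.3 ± 65.5 FPKM with CLE9 and had the smallest departures in CLE9 replicate 2. HCEF1, a fructose-1,6-bisphosphatase, was at 284 ± 12.1 and 182 ± 103 FPKM, and RPE, the ribulose-phosphate epimerase, at 284 ± 24.3 and 224 ± 105 FPKM.

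CP12 proteins bind PRK and glyceraldehyde 3-phosphate dehydrogenase in the dark and hold both inactive. CP12-1 (AT2G47400) was at 1145, 1053 and 1113 FPKM with water and 999.6, 477 and 779 FPKM with CLE9. Every CLE9 library was below every control, in CLE9 replicate 1 by a small step. CP12-2 (AT3G62410) was at 260.0, 193 and 273 FPKM with water and 209, 33.3 and 164 FPKM with CLE9. Here CLE9 replicate 1 was above control replicate 2, so the groups overlapped. The differences were -0.62 ± 0.36 and -1.18 ± 0.70 (limma adjusted p = 0.708 and 0.711). CP12-2 had the smallest adjusted p of the list without both replicate 2 libraries, with a difference of -0.53 ± 0.17 (limma adjusted p = 0.120). When limma's array weights gave the more variable libraries less weight, 4884 of all genes tested were called (27.4%). Among the 37, CP12-1 and CP12-2 were called, with differences of -0.51 ± 0.13 (limma adjusted p = 0.0291) and -0.67 ± 0.19 (limma adjusted p = 0.0370). Over all the alternatives the adjusted p ran from 0.0291 to 1.00 for CP12-1 and from 0.0370 to 1.00 for CP12-2.

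Of the 17 photorespiration genes 0 were called, and their median fitted difference was -0.78 (-0.23 without both replicate 2 libraries). For the 6 chloroplast genes, all 3 CLE9 libraries were below the control library of the same number, where 26.0% of all genes tested showed this. For AT1G80380 the difference in replicate 1 was only -0.004 on the log2 scale. Phosphoglycolate phosphatase (PGLP1, AT5G36700), the entry step, was at 78.5, 68.6 and 74.0 FPKM with water and 65.7, 14.0 and 61.7 FPKM with CLE9. CLE9 replicates 1 and 3 were just below the lowest control. PGLP1 has a near-identical copy, AT5G36790, at 77.4, 66.4 and 72.4 FPKM and 64.8, 12.9 and 57.8 FPKM, so the values of the 2 genes cannot be taken as separate. GLU1 (AT5G04140), the ferredoxin-dependent glutamate synthase that takes up photorespiratory ammonia, was at 159.6, 149 and 147 FPKM with water and 113, 32.0 and 138 FPKM with CLE9. The groups did not overlap, and unlike most genes of the list it was lower in CLE9 replicate 1 than in CLE9 replicate 3. The differences of PGLP1 and GLU1 were -0.91 ± 0.59 and -0.92 ± 0.55 (limma adjusted p = 0.726 and 0.713).

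GS2, the chloroplast glutamine synthetase that works with GLU1, was at 625 ± 41.3 FPKM with water and 474 ± 135 FPKM with CLE9, and its groups did not overlap either. AT1G80380, which encodes glycerate kinase, the last step back to the Calvin cycle, was at 229 ± 17.3 and 167 ± 78.0 FPKM. The carriers DiT1, which moves 2-oxoglutarate and malate, and LrgB (AT1G32080), a glycolate and glycerate carrier of the chloroplast envelope, differed from each other in CLE9 replicate 2. DiT1 was there 1.56 times below the mean of CLE9 replicates 1 and 3, and LrgB 7.09 times below it, at 9.04 FPKM.

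In the peroxisome, glycolate is oxidized by GOX1 and GOX2, the H2O2 is removed by catalase (CAT2), and glyoxylate is aminated by GGT1 and AGT. AGT (AT2G13360), which uses serine as the amino donor, was at 2436, 2256 and 2617 FPKM with water and 2008, 799 and 1770.0 FPKM with CLE9. Its groups did not overlap, and it was the peroxisomal gene with the smallest p, with a difference of -0.78 ± 0.46 (limma adjusted p = 0.710) and -0.42 ± 0.19 without both replicate 2 libraries (adjusted p = 0.239). GGT1, which uses glutamate, was at 985 ± 91.2 FPKM with water and 799 ± 458 FPKM with CLE9, with 1207 FPKM in CLE9 replicate 1 above every control. CAT2 was at 763 ± 189 and 514 ± 385 FPKM, GOX1 at 879 ± 114 and 672 ± 376 FPKM, GOX2 at 529 ± 95.6 and 350.0 ± 194 FPKM, and hydroxypyruvate reductase (HPR) at 550.2 ± 109 and 381 ± 233 FPKM.

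In the mitochondrion, glycine decarboxylase and serine hydroxymethyltransferase (SHM1) turn glycine into serine, CO2 and ammonia. The P-protein genes GLDP1 and GLDP2 were at 842 ± 69.9 and 396 ± 64.2 FPKM with water and 569 ± 419 and 271 ± 184 FPKM with CLE9. The T-protein gene AT1G11860 was at 398 ± 54.8 and 289 ± 168 FPKM, the H-protein gene GDCH at 208 ± 38.5 and 162 ± 56.6 FPKM, and SHM1 at 684 ± 55.1 and 516 ± 228 FPKM. For all 5 genes the groups overlapped. Their median fitted difference was -0.68 with all 6 libraries and -0.06 without both replicate 2 libraries. In the latter fit the median over all genes tested was -0.05. GLDP1 was at 931 FPKM in CLE9 replicate 3, above each control, and at 110.5 FPKM in CLE9 replicate 2.

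The replicate numbers were taken to pair the libraries, which no label states and which the values cannot decide for replicates 1 and 3. Each pair was read on its own. The median difference of the 37 genes on the log2 scale was -0.14, -1.84 and -0.37 in pairs 1, 2 and 3, beside -0.03, -0.05 and -0.04 over all genes tested. Pair 2 had by far the largest median, and 25, 37 and 36 of the 37 genes were lower with CLE9 in the 3 pairs. Of all 17812 genes tested, 9630, 9639 and 9665 were lower. In all 3 pairs 24 of 37 were lower, where 26.0% of all genes tested were, and in pairs 1 and 3 the same count of 24 was lower, where 36.7% of all genes were. In pair 1 the difference ran from -0.49 (GLU1) to 0.49 (GAPA-2), and 4 of the 5 genes of the Rubisco group were higher with CLE9 there. The exception in pair 3 was GLDP1, at 0.28. The 29 nuclear photosystem genes, read the same way, had medians of -0.08, -1.76 and -0.40, close to those of the 37 genes in each pair.

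**Figure D3:**
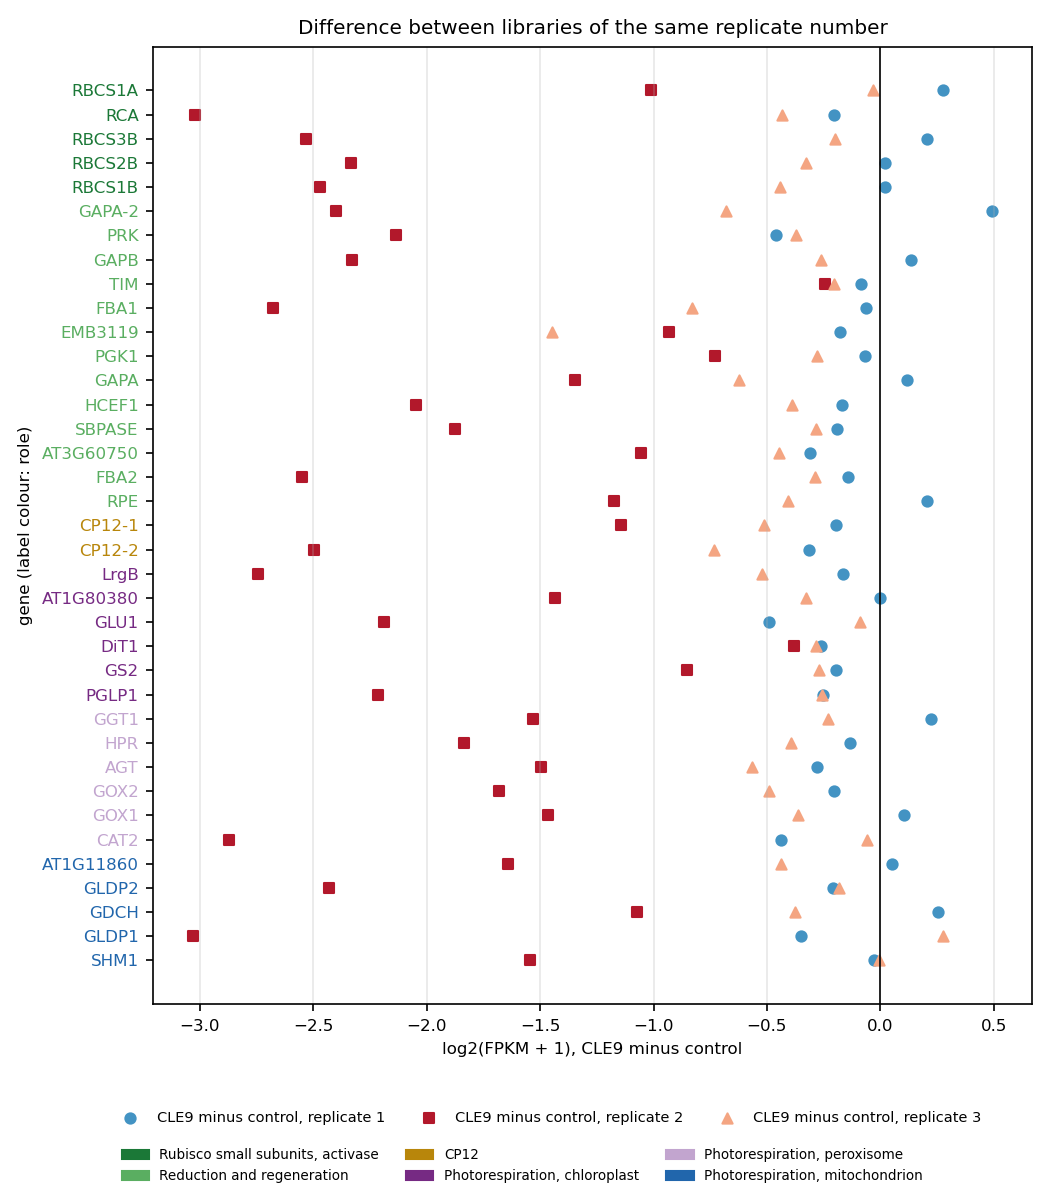
Difference of log2(FPKM + 1), CLE9 minus control, between the libraries of the same replicate number for each of the 37 genes, with 1 symbol per pair. Pair 2 (dark red squares) reaches -3.03, while pairs 1 and 3 lie between -1.45 and 0.49 around medians of -0.14 and -0.37.

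Without both replicate 2 libraries, 2 libraries were compared with 2. The 37 genes then had a median difference of -0.23 beside -0.05 over all genes. Of the 37, 35 were lower, with RBCS1A and RBCS3B as the exceptions, where 10180 of all 17812 genes tested were lower. The standard errors were smaller, from 0.12 to 0.35, and limma called 2024 of all genes tested (11.4%), 1498 of them higher with CLE9, but 0 of the 37. CP12-2, AT3G60750 and PRK had an unadjusted limma p under 0.05 (0.0228, 0.0425 and 0.0439), 8.11% of the 37 against 4671 (26.2%) of all genes tested. CLE9 replicates 1 and 3 were both below control replicates 1 and 3 for 22 of 37 genes, where 32.1% of all genes tested showed this. The largest remaining differences were those of EMB3119 (-0.81 ± 0.35), CP12-2 (-0.53 ± 0.17), FBA1 (-0.45 ± 0.24), AGT (-0.42 ± 0.19) and PRK (-0.42 ± 0.16). EMB3119 was at -0.18 in pair 1 and -1.45 in pair 3, where control replicate 3 was far above the other libraries. A p that misses the threshold does not show that these levels were the same.

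**Figure D4:**
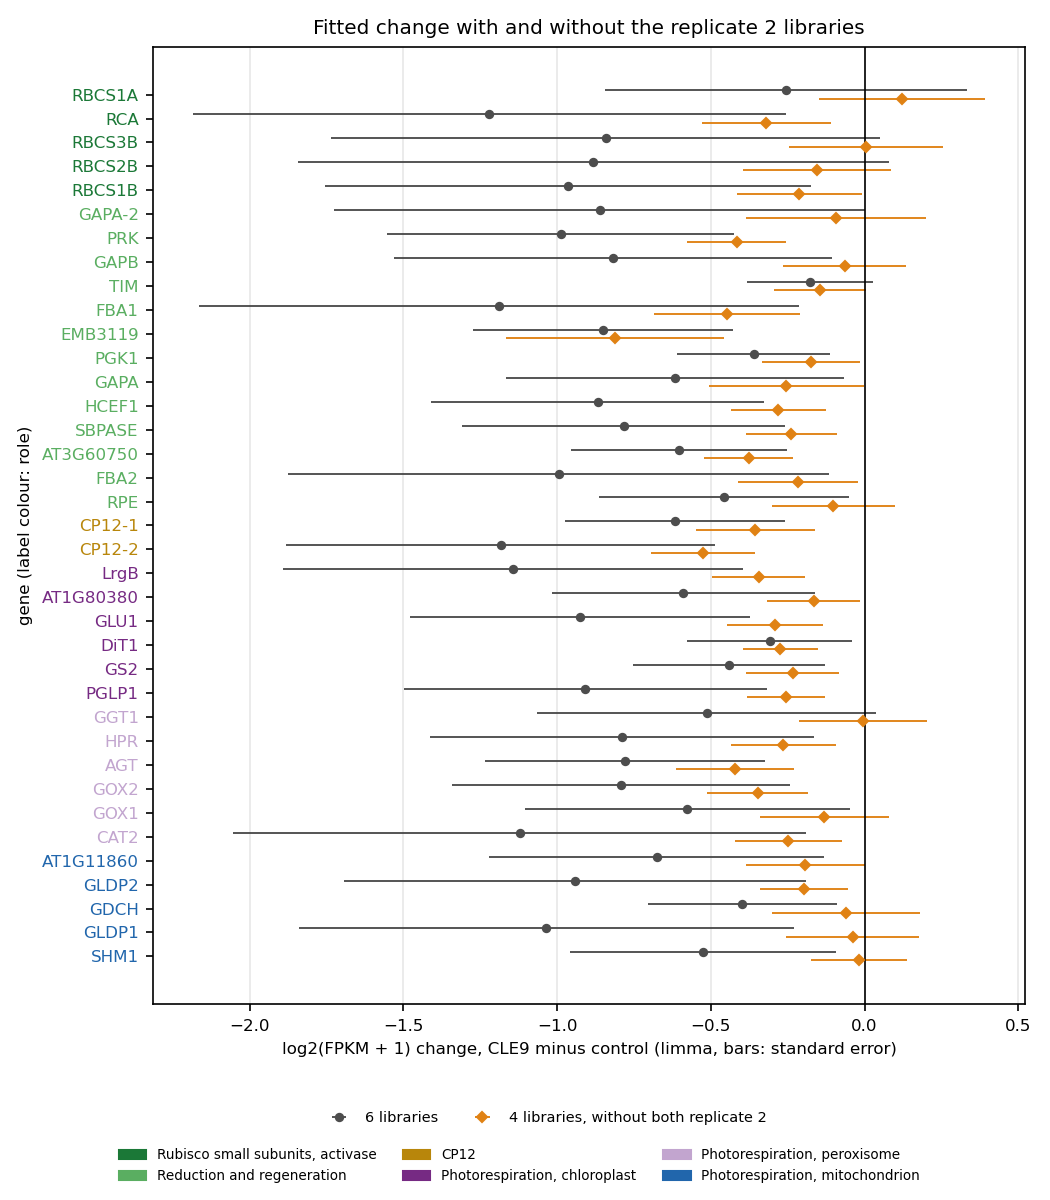
Fitted difference, CLE9 minus control, of log2(FPKM + 1) for the 37 genes with all 6 libraries (grey circles) and without both replicate 2 libraries (orange diamonds), with bars for the standard error from limma. The differences lie between -1.22 and -0.18 in the first fit and between -0.81 and 0.12 in the second, with narrower bars.

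The size of the departure in CLE9 replicate 2 differed widely among the genes. Against the mean of CLE9 replicates 1 and 3, 13 genes were at least 5 times lower, 17 between 2 and 5 times, and 7 less than 2 times, with a median of 3.56 times. FBA1 (10.3 times), CAT2 (9.86), RCA (9.80), RBCS2B (8.85), FBA2 (8.07), GAPA-2 (7.90) and RBCS3B (7.55) were at the upper end. TIM (1.15 times), PGK1 (1.39), GDCH (1.53), DiT1 (1.56) and GS2 (1.73) were at the lower end, so enzymes of the same compartment stood at both ends. Control replicate 2 departed less from control replicates 1 and 3: the median was -0.29 on the log2 scale, against -1.81 in CLE9 replicate 2. In control replicate 2, 33 of 37 genes were lower, against 11571 of all 17812 tested. The lowest in control replicate 2 were FBA1 (-1.08) and RBCS2B (-0.95). The exceptions were GDCH (0.44), SHM1 (0.18), GLDP1 (0.17) and PGK1 (0.08), 3 of the 4 in the mitochondrial group. Over the 37 genes the departures of both libraries had a Pearson r of 0.554 and a Spearman rho of 0.529, beside 0.743 and 0.679 over all 17812 genes tested. These are descriptions across genes that share 2 reference libraries for each departure.

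**Figure D5:**
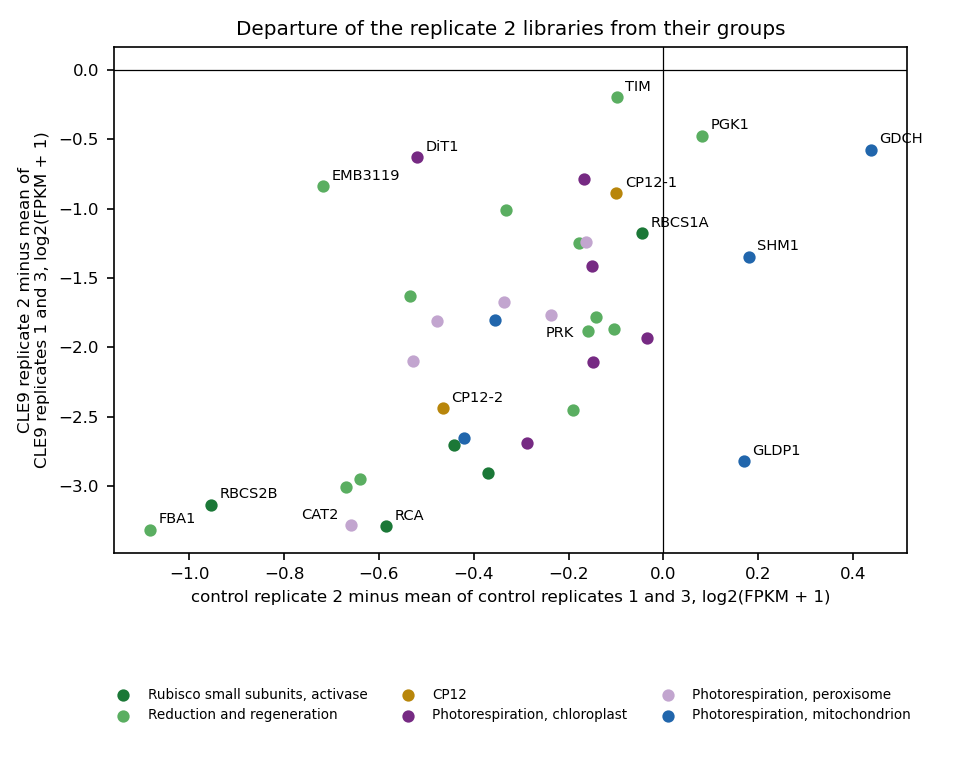
Departure of CLE9 replicate 2 from the mean of CLE9 replicates 1 and 3 (vertical axis) against the departure of control replicate 2 from the mean of control replicates 1 and 3 (horizontal axis), in log2(FPKM + 1), for the 37 genes coloured by role. All points lie below 0 on the vertical axis, from -3.31 (FBA1) to -0.20 (TIM), and 33 of 37 lie left of 0.

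Other lists also departed in the replicate 2 libraries, some upward and some downward, and their part in the results was not tested. The 10 touch and wounding genes summed to 798, 4302 and 742 FPKM with water and to 1723, 4751 and 1688 FPKM with CLE9. The replicate 2 libraries were the highest in each group, and all 10 genes were above the mean of the other libraries of their group in both. The 11 circadian clock genes included CCA1, a morning gene, at 29.6, 7.74 and 27.2 FPKM with water and 27.5, 0.336 and 24.9 FPKM with CLE9, and TOC1, an evening gene, at 13.7, 47.0 and 12.7 FPKM and 25.2, 118 and 22.9 FPKM. In both replicate 2 libraries CCA1 was low and TOC1 high, more so with CLE9. TOC1 was also higher with CLE9 in replicates 1 and 3. Of the 11 genes, 4 were below the other libraries of their group in mean in control replicate 2, and 5 in CLE9 replicate 2. PRR7 was above the other controls in control replicate 2 (101.7 FPKM) and below the other CLE9 libraries in CLE9 replicate 2 (47.8 FPKM). The summed clock level, which joins genes that were low and genes that were high in replicate 2, was between 184.6 and 288.9 FPKM with water. It was between 181 and 341 FPKM with CLE9. Of the 14 root markers 12 passed the filter, with sums over all 14 of 64.4 to 121 FPKM with water and 47.4 to 136.2 FPKM with CLE9. NAXT1 alone gave 41.9 of the 47.4 FPKM in CLE9 replicate 2, its highest level of the 6 libraries. The other 13 root markers, set apart after the values were seen, summed to 112, 36.3 and 102 FPKM in control replicates 1, 2 and 3 and to 85.4, 5.48 and 102 FPKM in the CLE9 libraries. They were thus far lower in both replicate 2 libraries, most of all with CLE9, where RSL4, RHD6 and PLT2 were at 0. These genes were low in every library, with a highest value of 4.55 FPKM (RSL4, CLE9 replicate 3), and PLT2 did not pass the filter. In CLE9 replicate 2, 194 of all genes tested were at 0, against 15 to 29 in the other libraries. The photosystem genes, with no gene at 0, summed to 57030 to 67398 FPKM with water and to 20319 to 64282 FPKM with CLE9. Each list was lowest or highest in a replicate 2 library.

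The 46 other genes of the pathways, from lists of further isoforms, Rubisco assembly and redox factors, and further photorespiratory genes, had 0 calls in either direction with group only and with the replicate block. Their median fitted difference was -0.41, with 41 of 46 lower, where 10222 of all 17812 genes tested were. Without both replicate 2 libraries it was -0.21, with 37 of 46 lower, where 10180 of all 17812 genes tested were. With all 6 libraries the 16 assembly and redox genes were lower in mean without exception (median -0.52). Of the 16, 14 were lower without both replicate 2 libraries (median -0.21). TRXF1 and TRXF2, the thioredoxins f that activate Calvin cycle enzymes in light, were at 111 ± 8.76 and 89.4 ± 5.14 FPKM with water and 66.4 ± 42.2 and 56.3 ± 36.5 FPKM with CLE9. In CLE9 replicates 1, 2 and 3 TRXF1 was at 98.8, 18.8 and 81.8 FPKM, and TRXF2 at 86.4, 15.7 and 66.9 FPKM. The 4 genes with the smallest p were CP12-3, SHM3, AT5G28500 and RSW10. CP12-3, the third CP12 gene, went the other way from CP12-1 and CP12-2: it was at 51.1, 66.6 and 50.7 FPKM with water and 100.9, 98.3 and 69.1 FPKM with CLE9. All 3 CLE9 libraries were above all controls, CLE9 replicate 2 included, with a difference of 0.65 ± 0.23 (limma adjusted p = 0.492, over the alternatives from 0.0215 to 1.00). With array weights it was called (0.51, adjusted p = 0.0215). RSW10 is annotated as a ribose 5-phosphate isomerase gene, like EMB3119, with no compartment named. Whether its product serves the Calvin cycle was not checked. RSW10 was at 14.1, 32.2 and 13.8 FPKM with water and 27.5, 46.4 and 25.4 FPKM with CLE9, with a difference of 0.75 ± 0.40 (limma adjusted p = 0.671). Within each pair CLE9 was the higher, and without both replicate 2 libraries it was the 1 gene of the 46 that limma called (0.87, adjusted p = 0.0101, over the alternatives from 0.00523 to 1.00). SHM3, a serine hydroxymethyltransferase gene, and AT5G28500, a Rubisco accumulation factor gene, were at 21.9 ± 3.12 and 117 ± 14.9 FPKM with water and at 15.1 ± 3.34 and 82.4 ± 21.6 FPKM with CLE9 (limma adjusted p = 0.576 and 0.643). SHM3 was called with array weights (-0.50, adjusted p = 0.0490, over the alternatives from 0.0490 to 1.00), and AT5G28500 was not (adjusted p = 0.156).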

How the data were processed

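RNA of 6 seedling libraries was deposited as 1 table of FPKM values, which the authors computed, per the file headers. Build TAIR10 and, with no role or order, DESeq2 1.16.1, featureCounts 1.5.0-p3, HISAT2 2.0.5, CASAVA 1.8 and StringTie 1.3.3b are named in the submitters' processing notes. The tool behind the FPKM and the use of strand are not given in the sources used here, so reads of near-identical or overlapping genes can have been divided between them. A position shared with another gene was found for 85 genes, none of them of the 37. Gene positions are those of the deposited table. Symbols came from RefSeq (TAIR10.1), where 26719 of 27416 identifiers matched. Since only 34% of matched genes had the same start there, RefSeq coordinates were used only for the promoter windows.

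The deposited FPKM were taken to log2 with a pseudocount of 1, which understates differences of low genes. The 17812 genes whose mean reached 1 FPKM were fitted with limma 3.58.1 in R 4.3.3 (group only, mean-variance trend), two-sided, with Benjamini-Hochberg adjustment over all of them. Depth was estimated from 154 to 171 low values per library among 1735 single-exon genes. The depth kept was the one at which the largest share of these values was whole within 0.1 fragments. That share was 38.5% to 50.9%. The 20% given by chance holds for a depth fixed in advance, not for the best of many, so the share is no test. Reads were not recovered and depth is approximate. The numbers were treated as pairs, although no label states this. Deviations from the group mean correlated across genes at 0.545, 0.743 and 0.583 between same-numbered libraries, all over 0.1. Control replicate 1 correlated at 0.664 with CLE9 replicate 3, and control replicate 3 at 0.620 with CLE9 replicate 1. Since replicate 2 stood apart in both groups, replicates 1 and 3 deviate to the same side in both. These correlations therefore cannot show which of replicates 1 and 3 belong together.

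Full values were given for the RBCS genes, RCA, PRK, SBPASE, CP12-1, CP12-2, the 3 reduction and regeneration genes and the 3 photorespiration genes with the smallest p in each direction (none was higher), and of the other pathway genes the 4 with the smallest p. Other values named in the text were chosen after they were seen. The genes, the lists and the tests were chosen with earlier results of these data known. Alternatives covered the replicate block, pseudocount, filter, scaling between libraries, library weights, trend and the libraries used.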

Additional observations from a re-analysis of the deposited data

How the results depend on the processing

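No gene of the list was called under any alternative except array weights, which called 2 (CP12-1 and CP12-2) and, of the 4 other pathway genes named, CP12-3, SHM3 and RSW10. The count of genes called over the table (1) was 355 with the replicate block, 4 with a pseudocount of 5, 3 with a mean of 5 FPKM or more, 2 with quantile normalization, 4884 with array weights and 2024 without both replicate 2 libraries, and 2030 and 2048 when the latter was joined with median-of-ratios scaling and with quantile normalization, both chosen after seeing the data. Leaving out each library in turn gave 0 to 204. Paired by replicate number, it was 0 without pair 1, 1870 without pair 2 and 0 without pair 3. The block changed no call among the 37 genes.

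The median difference of the 37 genes (-0.79) was -0.10 without CLE9 replicate 2, -0.23 without both replicate 2 libraries, -0.33 with array weights, -0.23 with the block without pair 2 and -0.19 with both added scalings, and otherwise lay between -1.15 and -0.71. RBCS1A was at 0.12 without both replicate 2 libraries, 0.12 with the replicate block without pair 2, 0.16 with median-of-ratios scaling added, and from -0.54 to 0.14 when each library was left out. RBCS2B ran from -1.49 to 0.16 in this way, and was at 0.00 with quantile normalization and no replicate 2. RBCS3B ran from -1.41 to 0.13, and was at 0.00 without both replicate 2 libraries, 0.00 with the block without pair 2, and at 0.04 and 0.12 with the added median-of-ratios and quantile scalings. The cause was not tested. Of the 396 values under alternatives, 376 kept their direction and side of the threshold, 11 changed sign and 9 passed it. Fits that leave an arm with few libraries assume that these vary like the rest. Depth is only approximate, and with 3 libraries a group the standard errors reached 0.98.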

Other observations

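Catalase genes differed from each other in CLE9 replicate 2. CAT2 was there at 74.3 FPKM, 9.86 times below the mean of the other CLE9 libraries, while CAT3 was at 1888 FPKM, above its 850.1 and 914 FPKM in CLE9 replicates 1 and 3 and above the controls (1289, 1380.3 and 1325 FPKM). CAT1 was at 84.9 FPKM there, against 45.1 and 71.2 FPKM in CLE9 replicates 1 and 3. In control replicates 1, 2 and 3 CAT1 was at 72.1, 127.7 and 69.1 FPKM, so control replicate 2 was higher still.

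The Rubisco assembly gene RbcX1 was at 83.4 FPKM in control replicate 2, against 20.2 and 14.3 FPKM in the other controls, and at 49.2 FPKM in CLE9 replicate 2, against 10.8 FPKM in each other CLE9 library, the opposite direction to the RBCS genes in these libraries. RbcX2 was at 74.8 to 83.2 FPKM with water and at 90.6, 43.9 and 75.7 FPKM with CLE9. BOU, a mitochondrial carrier gene needed for photorespiration, was at 61.4, 33.1 and 69.0 FPKM with water and at 68.5, 6.73 and 40.0 FPKM with CLE9. These genes were chosen after their values were seen.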
